A study of Homo sapiens with 46 samples.

Results

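Solute carriers (SLC) are membrane transport proteins, and the genes described here are mainly carriers of the plasma membrane and of organelles such as the Golgi and the lysosome. The SLC25A family of mitochondrial carriers was left out, although products of a few genes that remain, such as SLC30A9 and SLC8B1, have been placed in mitochondria. They were chosen by symbol alone: the gene symbol had to consist of SLC, a family number, a letter and a member number, outside the SLC25A family, and the gene had to be present in the transcript tables of all 4 cell types studied. The rule gave 141 genes out of 10707 genes in all 4 tables. In any table there were 231 such SLC genes, with 185 in hPSC, 202 in ectoderm, 189 in mesoderm and 181 in endoderm. By symbol prefix the 141 genes fell into amino acid carriers (29), carriers of nucleosides, choline and vitamins (19), nucleotide sugar carriers of the SLC35 and SLC33 families (19), zinc and manganese carriers (15), exchangers and cotransporters of inorganic ions (15), sugar carriers (14), monocarboxylate and fatty acid carriers (14), carriers of other metals (7), phosphate and other anions (7) and others (2). All 141 were annotated as protein coding genes in GENCODE release 29 on GRCh38. No measured value was used to choose them.

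RNA was sequenced from 4 fractions (cytoplasm, nucleus, nucleoplasm, which is the soluble nuclear part, and chromatin) of the H1 line of human pluripotent stem cells (hPSC), an established line, and of 3 germ layer cultures made from it. The hPSC group was kept in mTeSR1 on Matrigel. Endoderm was induced with WNT3A and Activin A in RPMI, mesoderm with VEGF, BMP4 and bFGF in DMEM/F12 with Activin A present on the first day only, and ectoderm with the inhibitors A83-01, PNU-74654 and Dorsomorphin in a KOSR medium. The 3 derived cultures were collected after 5 days, and the cytoplasm of every group was released with a mild NP-40 buffer that contained α-amanitin. The series text speaks of actinomycin D, which no label of these libraries names. The 46 libraries formed 16 groups, 15 of 3 libraries and 1 (mesoderm nucleoplasm) of 1 library. All cells derive from 1 line, and the labels do not say that replicates were separate cultures, so p-values measure the spread between these libraries, which may be technical.

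As background, carriers at the cell surface set the uptake of glucose, amino acids, metals and nucleosides, and those of the Golgi, endosomes and lysosomes load nucleotide sugars, zinc and amino acids into these compartments. Dividing pluripotent cells are known for high glucose and amino acid uptake. Most SLC mRNAs code for proteins with several membrane-spanning segments and are translated at the endoplasmic reticulum.

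Library totals ran from 4990408 to 21298678 counts, and counts are given as CPM, a share of the library's total count. TPM, which also correct for transcript length, are used where 1 gene is set against another. Fraction names follow the labels, and the markers did not match them in every cell type. The nuclear RNA MALAT1 stood at 159 to 285 TPM in mesoderm nucleus against 46.8 to 52.7 TPM in mesoderm cytoplasm. In hPSC it stood at 11.3 to 15.8 TPM in nucleus against 23.2 to 30.5 TPM in cytoplasm, in ectoderm at 5.91 to 57.2 against 162 to 364 TPM, and in endoderm the ranges overlapped (5.90 to 52.1 against 14.2 to 25.4 TPM). NEAT1, a nuclear RNA assembled in all but endoderm, was above its cytoplasm range only in mesoderm nucleus (7.31 to 15.97 against 2.17 to 2.61 TPM), and KCNQ1OT1 stayed at or under 2.20 TPM in both fractions. The 6 cytoplasmic markers (RPLP0, EEF1A1, GAPDH and ACTB with the mitochondrial MT-ND1 and MT-CO1) were assembled in each cell type. They summed to more in nucleus than in cytoplasm in hPSC (69930 against 29280 TPM), ectoderm (70710 against 35880 TPM) and endoderm (61600 against 28950 TPM), and to less in mesoderm (26650 against 53580 TPM). The mRNA of the ribosomal protein RPLP0 was above the nucleus in the cytoplasm of hPSC, endoderm and mesoderm, but stood at 6827 to 8370 TPM in ectoderm nucleus against 5215 to 6106 TPM in ectoderm cytoplasm. Mitochondrial RNA took 13.1% to 15.3% of counts in hPSC nucleus, 8.15% to 10.2% in ectoderm nucleus and 8.09% to 16.1% in endoderm nucleus, against 0.399% to 1.58% in their cytoplasm. In mesoderm the order was the other way, with 1.11% to 1.36% in nucleus and 5.84% to 7.46% in cytoplasm. The 7 endoderm markers were all assembled in endoderm (166.6 TPM in sum in cytoplasm) and 6 of 7 ectoderm markers in ectoderm (505.9 TPM). In mesoderm nucleus, however, ectoderm markers (3 assembled) summed to 612.9 TPM, against 464.9 TPM in ectoderm nucleus (6 assembled). Mesoderm markers summed to 124.3 TPM in mesoderm cytoplasm and to 84.4 TPM in endoderm cytoplasm, but in nucleus they reached 99.4 TPM in mesoderm against 121.7 TPM in endoderm and 107.1 TPM in hPSC, and in chromatin 109.7 TPM against 186.2 TPM in endoderm. These mesoderm sums rest on 5 assembled genes in mesoderm, 6 in endoderm and 4 in hPSC. An amnion or trophoblast list reached 170.8 TPM in mesoderm cytoplasm. Fibroblast-like markers summed to 49.1 TPM and neural crest markers to 1.63 TPM there, while pluripotency markers still summed to 2727 TPM in endoderm, 1465 TPM in mesoderm and 861.4 TPM in ectoderm cytoplasm against 3867 TPM in hPSC. Of the pluripotency list 6 genes were assembled in endoderm, 4 in mesoderm, 6 in ectoderm and 7 in hPSC, so sums across cell types do not cover the same genes. One mesoderm chromatin library, replicate 3, stood apart with 5.53% mitochondrial counts against 0.769% and 1.12% in its group, and of the mesoderm chromatin calls named or plotted here the one for SLC39A8 was lost without it (0.41). In bulk RNA, fewer cells of a type and less RNA per cell cannot be told apart.

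SLC transporter RNA took the smallest share of counts in the cytoplasm of each cell type. In hPSC the 141 genes together held 4182.5 ± 314 CPM in cytoplasm (SD, n = 3), 18838 ± 1444 CPM in nucleus, 13569 ± 589 CPM in nucleoplasm and 13745 ± 711 CPM in chromatin. In endoderm they held 8657 ± 756, 24152 ± 1860, 26620 ± 547 and 15341 ± 38.2 CPM in the same order. In mesoderm they held 7015 ± 571 CPM in cytoplasm, 20895 ± 1012 CPM in nucleus and 13924 ± 1761 CPM in chromatin. The gap was narrowest in ectoderm, with 4943 ± 530 CPM in cytoplasm and 9382 ± 793 CPM in nucleus. No library of a nuclear fraction fell to the cytoplasmic range of its own cell type. The transcript assembly changed with the cell type, so shares and levels set across cell types rest on separately made tables.

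**Figure D1:**
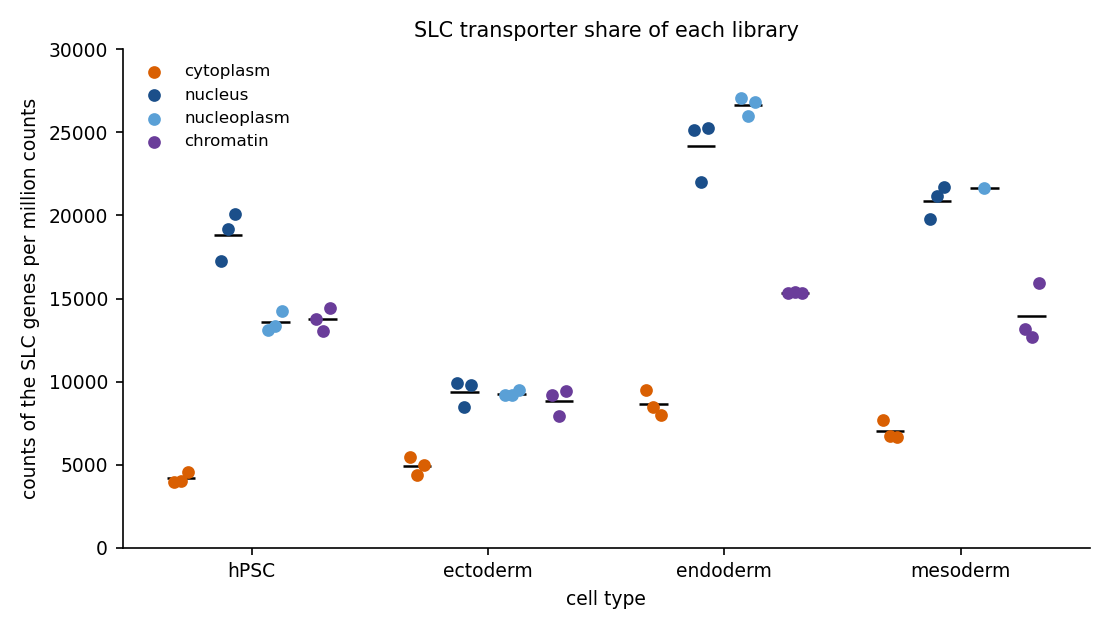
Summed CPM of the 141 SLC genes (vertical axis, from 0) for each library, by cell type and fraction; points are libraries and black lines are group means. Cytoplasm libraries sit lowest in each cell type, and ectoderm has the smallest gap, from a mean of 4943 CPM in cytoplasm to 9382 CPM in nucleus.

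A few carriers held a large share of this RNA. In TPM, the 10 most abundant members held 39.4% of the SLC total in hPSC cytoplasm and 73.8% in endoderm nucleoplasm, the lowest and highest shares of the 16 groups. SLC2A3 (GLUT3, a high-affinity glucose carrier) and SLC3A2 (the heavy chain that brings several amino acid carriers to the cell surface) were among the first 10 in every group. SLC2A3 ranked first in the cytoplasm of the 3 derived cell types, at 168 ± 39.9 TPM in ectoderm, 481 ± 50.5 TPM in mesoderm and 471 ± 101 TPM in endoderm (SD, n = 3 each). In hPSC cytoplasm it stood at 48.6 ± 13.7 TPM and had rank 7. The first ranks there were held by SLC3A2 at 84.1 ± 7.65 TPM and the zinc importer SLC39A1 at 82.1 ± 7.05 TPM. SLC39A1 was named after its value was seen, and its spread overlaps that of SLC3A2. Between 122 and 139 of the 141 members reached a mean of 1 TPM in a group, and the median member ranged from 4.93 TPM (hPSC cytoplasm) to 28.2 TPM (mesoderm nucleus). SLC2A3 lies at chr12:7919230-7936275 on the minus strand of GRCh38. In hPSC, endoderm and mesoderm reads may have been divided between it and its near-identical neighbour SLC2A14. SLC2A14 was not in the ectoderm table, so it could take no reads there. The part of this in SLC2A3 changes between ectoderm and hPSC was not tested.

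The first comparison set cytoplasm against nucleus within each cell type. Of the tested members, 130 of 139 were lower in hPSC cytoplasm, where 30.0% of all tested genes were lower. In endoderm 117 of 140 were lower (35.5% of all genes), in mesoderm 101 of 140 (31.2%) and in ectoderm 96 of 140 (24.8%). Only 3 members were higher in hPSC cytoplasm (35.6% of all genes), 11 in ectoderm (28.7%), 4 in mesoderm (32.1%) and 6 in endoderm (34.3%). The median log2 change of the members was -1.74 in hPSC, -0.82 in ectoderm, -1.09 in mesoderm and -1.44 in endoderm, while the median over all genes lay between 0.00 and 0.11. Called in either direction were 65.7% of all genes in hPSC, 53.5% in ectoderm, 63.3% in mesoderm and 69.8% in endoderm. These 4 comparisons share no library, and 71 of the 138 members tested in all of them were lower in all 4, as were 13.2% of all genes. Calls are edgeR quasi-likelihood tests at a Benjamini-Hochberg adjusted p under 0.05 over all genes tested. Changes use trimmed-mean (TMM) scaling, and total counts alone moved the median of all genes by 0.12 in hPSC, 0.35 in ectoderm, -0.12 in mesoderm and 0.72 in endoderm. With total counts the members' median was -1.62 in hPSC, -0.47 in ectoderm, -1.20 in mesoderm and -0.69 in endoderm, and on TPM it was -1.72, -0.45, -1.94 and -0.88. In ectoderm 65 members were called on TPM, against 107 on counts.

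Mitochondrial SLC25A carriers, which were measured in the same libraries, did not share this shift. Unlike the members, they did not have to be in all 4 tables, where 33 of them were found. In hPSC 20 of 39 were higher and 3 lower in cytoplasm, with a median log2 change of 0.48. The counts were 12 higher and 10 lower of 39 in ectoderm, 20 and 5 of 37 in mesoderm and 17 and 9 of 41 in endoderm, with medians of -0.05, 0.62 and 0.24. Among 20 listed partners and regulators of transport, 11 of 18 tested were lower and 4 higher in hPSC cytoplasm, 8 and 6 of 20 in ectoderm, 10 and 2 of 18 in mesoderm and 9 and 6 of 19 in endoderm. BSG, the membrane chaperone of lactate carriers, had log2 changes of -3.63 in endoderm, -2.69 in hPSC and -1.61 in ectoderm, and fell by 2.00 in mesoderm. The messenger of the transcription factor ATF4 was higher in cytoplasm in hPSC (1.17 ± 0.16, SE), ectoderm (0.50 ± 0.11) and mesoderm (1.07 ± 0.18), and stood at -0.01 ± 0.14 in endoderm. The difference between these lists and the transporters was not tested.

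**Figure D2:**
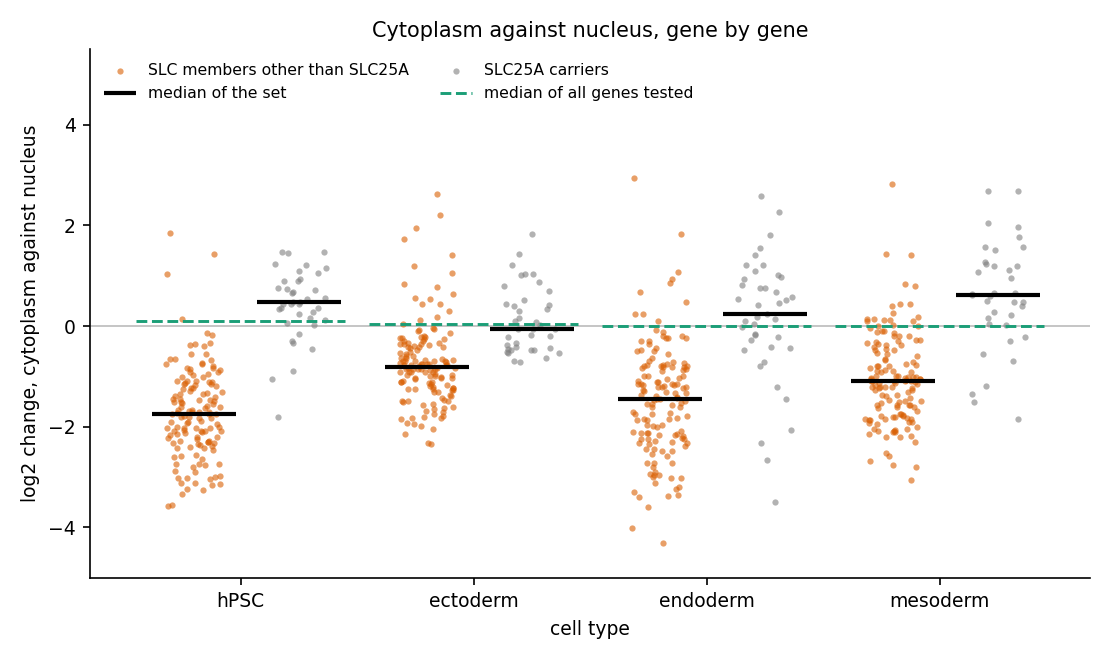
Log2 change of cytoplasm against nucleus (vertical axis) for each SLC member (orange) and each SLC25A carrier (grey) in the 4 cell types; black bars are medians and green dashed lines the median of all genes tested. Medians of the members lie between -1.74 and -0.82, those of SLC25A carriers between -0.05 and 0.62.

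Sugar carriers were lower in cytoplasm in 14 of 14 cases in hPSC and endoderm, 10 of 14 in mesoderm and 9 of 14 in ectoderm. SLC2A3 stood at 147, 175 and 205 CPM in hPSC cytoplasm and at 1402, 1476 and 1600 CPM in hPSC nucleus. In endoderm the values were 1924, 1636 and 1275 CPM in cytoplasm and 7096, 6630 and 8414 CPM in nucleus. All nucleus libraries of both cell types were several times above their cytoplasm, with no overlap. The log2 change of SLC2A3 was -3.16 ± 0.14 (SE, adjusted p = 4.40e-10) in hPSC, -1.92 ± 0.13 in ectoderm, -1.84 ± 0.30 in mesoderm and -2.93 ± 0.23 in endoderm. SLC2A1 (GLUT1, the widely expressed glucose carrier) ran in parallel, from 138, 104 and 141 CPM in hPSC cytoplasm to 948, 1071 and 1170 CPM in hPSC nucleus. Its log2 change was -3.12 ± 0.15 in hPSC, -2.32 ± 0.14 in ectoderm, -2.81 ± 0.18 in mesoderm and -3.38 ± 0.25 in endoderm. The lactate and pyruvate carrier SLC16A1 (MCT1, at chr1:112911847-112957013, minus strand) had the lowest log2 change of the 139 members tested in hPSC. It stood at 116, 146 and 168 CPM in hPSC cytoplasm against 1396, 1738 and 1722 CPM in nucleus, a log2 change of -3.57 ± 0.17 (adjusted p = 8.71e-10). In ectoderm, endoderm and mesoderm it changed by -1.95, -2.12 and -2.76. An antisense gene overlaps exons of SLC16A1, as for 55 of the 141 members, and whether counting used strand is not given in the sources used here.

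Amino acid carriers were lower in cytoplasm in 26 of 28 cases in hPSC, 17 of 28 in ectoderm, 22 of 29 in mesoderm and 23 of 29 in endoderm. SLC7A5 (LAT1, a carrier of large neutral amino acids such as leucine) and SLC3A2, its heavy chain, form 1 transporter at the cell surface. Their promoters are printed because the RNAs of both chains are compared throughout. The windows are the 250 bases before a RefSeq start on GRCh38.p14, written 5′ to 3′ on the gene's strand, at chr16:87869508-87869757 (minus strand) for SLC7A5 and chr11:62881449-62881698 (plus strand) for SLC3A2. The SLC3A2 window lies within the annotated gene (chr11:62856102-62888875), before an internal start. Windows that overlapped an annotated untranslated region were not printed. Capitals mark matches on either strand to CACGTG (E-box), TGATGNAA (the composite element of CHOP and ATF factors), TGACTCA (AP-1) and GGGCGG (GC box).
SLC7A5: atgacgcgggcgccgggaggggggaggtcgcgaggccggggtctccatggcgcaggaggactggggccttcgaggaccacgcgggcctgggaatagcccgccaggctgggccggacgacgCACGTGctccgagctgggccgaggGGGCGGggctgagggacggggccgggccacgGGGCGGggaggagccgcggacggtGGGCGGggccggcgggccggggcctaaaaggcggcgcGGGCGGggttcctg
SLC3A2: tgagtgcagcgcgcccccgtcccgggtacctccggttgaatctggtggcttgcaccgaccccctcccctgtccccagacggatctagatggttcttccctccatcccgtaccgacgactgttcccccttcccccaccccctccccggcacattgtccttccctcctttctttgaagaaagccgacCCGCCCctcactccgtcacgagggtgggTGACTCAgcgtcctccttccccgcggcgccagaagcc
The SLC7A5 window held 1 E-box and 4 GC boxes, and the SLC3A2 window 1 AP-1 match and 1 GC box. Of 35116 RefSeq promoters, 6.345% held CACGTG, 3.144% TGATGNAA, 4.203% TGACTCA and 42.64% GGGCGG. Among 177 promoters of the 112 members that could be matched, the shares were 12.99%, 1.695%, 5.085% and 66.67%. A match describes letters only.

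Both chains were lower in cytoplasm in each cell type. SLC7A5 stood at 168, 217 and 285 CPM in hPSC cytoplasm and 1113, 1094 and 1225 CPM in nucleus, a log2 change of -2.43 ± 0.16 (SE, adjusted p = 1.88e-08), and changed by -1.60 ± 0.15 in ectoderm, -1.12 ± 0.18 in mesoderm and -1.71 ± 0.29 in endoderm. SLC3A2 stood at 169, 126 and 144 CPM in hPSC cytoplasm and 1185, 1433 and 1416 CPM in nucleus (-3.27 ± 0.17). In endoderm SLC3A2 stood at 250, 231 and 241 CPM against 2481, 2300 and 2152 CPM, a log2 change of -4.02 ± 0.23 (adjusted p = 1.68e-09). The endoderm nucleus of SLC3A2 was thus far outside its cytoplasmic range, while SLC7A5 in endoderm nucleus spread widely, at 2790, 1419 and 1837 CPM. The arginine and lysine carrier SLC7A3 was among the 6 largest falls in all 4 cell types, at -3.56 ± 0.15, -2.34 ± 0.15, -3.60 ± 0.23 and -3.06 ± 0.18 in hPSC, ectoderm, endoderm and mesoderm. SLC1A5, a glutamine carrier, changed in that order by -2.98 ± 0.14, -1.79 ± 0.15, -2.39 ± 0.26 and -1.86 ± 0.16. Copies of SLC7A5 exist as pseudogenes, so its counts could include reads from them.

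Exchangers of inorganic ions were lower in cytoplasm in 14 of 15 cases in hPSC, 15 of 15 in ectoderm, 13 of 15 in mesoderm and 14 of 14 in endoderm. Across hPSC, ectoderm, endoderm and mesoderm, in that order, carriers of nucleosides and vitamins were lower in 19 of 19, 16 of 19, 18 of 19 and 14 of 19 cases. SLC29A1 (ENT1), the nucleoside carrier, changed by -2.31, -1.16, -1.86 and -0.88, and the folate carrier SLC19A1 by -2.58, -1.69, -3.39 and -1.94. Zinc and manganese carriers were lower in 14 of 15 cases in hPSC, 8 of 15 in ectoderm, and 10 of 15 in both endoderm and mesoderm. SLC39A14, an importer of zinc, iron and manganese, stood at 57.9, 60.3 and 67.5 CPM in hPSC cytoplasm against 487, 494 and 568 CPM in nucleus (-3.12 ± 0.12, adjusted p = 2.35e-10), and changed by -1.49, -2.23 and -2.06 in ectoderm, endoderm and mesoderm. The phosphate carrier SLC20A1 had close values in the 4 cell types, at -1.32, -1.20, -1.15 and -1.24 in the order just given. The creatine carrier SLC6A8 had smaller values in that order, at -0.56, -0.75, -0.78 and -0.59, and its call was lost in endoderm with total counts (-0.02) and in ectoderm on TPM (-0.47).

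Nucleotide sugar carriers, which act in the Golgi and endoplasmic reticulum, had the smallest median changes of the classes with 10 or more genes. Lower in cytoplasm were 16 of 19 in hPSC, 10 of 19 in ectoderm, 11 of 19 in mesoderm and 12 of 19 in endoderm, and 1, 4, 1 and 2 were higher. The class median was -1.23, -0.39, -0.38 and -0.71 in the same order, and in endoderm it was 0.02 with scaling by total counts. SLC35A2, the UDP-galactose carrier, changed by -1.61 ± 0.15, -0.90 ± 0.10, -1.52 ± 0.17 and -0.66 ± 0.15 across hPSC, ectoderm, endoderm and mesoderm. The lysosomal amino acid sensor SLC38A9 changed by -1.78, -1.02, -0.87 and -1.52 in that order, and its endoderm call was lost with total counts (-0.17) and on TPM (-0.52).

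SLC30A9 was the 1 member that was higher in cytoplasm in all 4 cell types, as were 10.4% of all genes. It is a member of the zinc exporter family whose product has been placed in mitochondria, and lies at chr4:41990472-42090457 on the plus strand. It stood at 73.0, 79.7 and 82.7 CPM in hPSC cytoplasm against 29.7, 25.4 and 28.7 CPM in nucleus. In endoderm it stood at 104, 103 and 80.8 CPM against 2.15, 12.7 and 9.76 CPM. Cytoplasm libraries were above nucleus libraries without overlap in both, which was a condition for naming it by size. The log2 change of SLC30A9 was 1.43 ± 0.26 (SE, adjusted p = 3.15e-04) in hPSC, 1.42 ± 0.18 in ectoderm, 1.42 ± 0.13 in mesoderm and 2.93 ± 0.32 in endoderm. On TPM the mesoderm value was 0.27 and was not called. SLC35A4, a member of the nucleotide sugar carrier family, was higher in cytoplasm in hPSC (100, 99.8 and 113 against 57.4, 43.2 and 45.9 CPM; 1.04 ± 0.12) and in mesoderm (1.43 ± 0.16, without a call on TPM at 0.28). In ectoderm it was lower in cytoplasm (47.4, 49.3 and 46.7 against 60.6, 57.6 and 52.5 CPM; -0.56 ± 0.16), a call lost with total counts (-0.21) and on TPM (-0.26). In endoderm the change of SLC35A4 was 0.25 ± 0.23 without a call, but was called with total counts (1.04), on TPM (0.63) and without endoderm nucleus replicate 1 (0.65). SLC36A4, a carrier of neutral amino acids, was higher in ectoderm cytoplasm (52.1, 34.1 and 41.2 against 15.9, 6.06 and 10.6 CPM; 1.74 ± 0.25) and endoderm cytoplasm (1.84 ± 0.28).

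**Figure D3:**
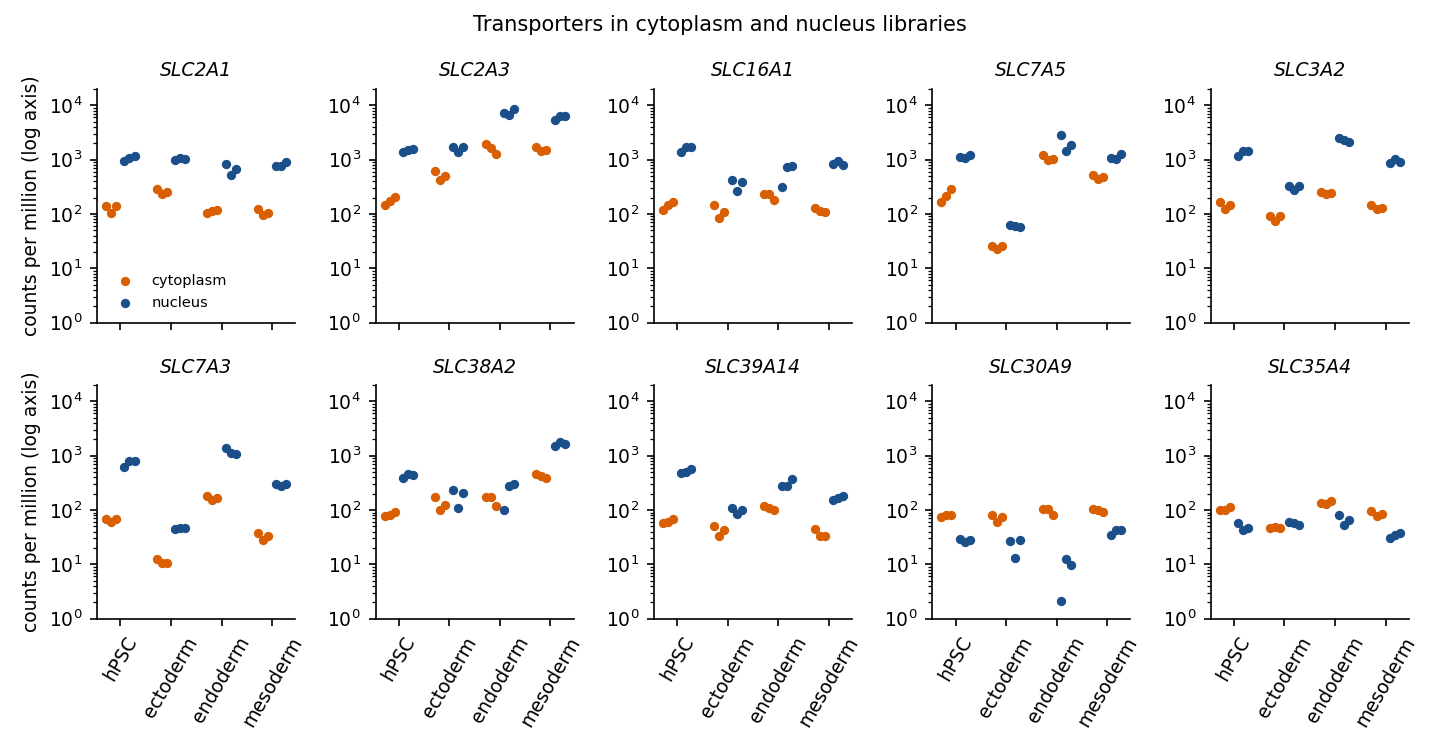
CPM (log axis) of 10 named members in each cytoplasm (orange) and nucleus (blue) library of the 4 cell types. SLC30A9 is the one panel in which cytoplasm lies above nucleus in every cell type, while SLC2A3 in hPSC runs from 147 to 205 CPM in cytoplasm and from 1402 to 1600 CPM in nucleus.

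A second comparison asked whether the difference between cytoplasm and nucleus itself differed from that in hPSC. In ectoderm 106 of 141 members had a less negative or more positive difference than in hPSC and 2 a lower one, against 27.4% and 24.5% of all genes, with a median of 1.11 on the log2 scale. In mesoderm the counts were 73 and 1, against 18.8% and 6.89% of all genes, with a median of 0.74. In endoderm they were 40 and 13, against 19.6% and 18.3%, with a median of 0.24. Called either way were 51.9% of all genes in ectoderm, 25.6% in mesoderm and 37.9% in endoderm. The 3 tests share the hPSC libraries. The ectoderm count was 122 and 2 on TPM. In mesoderm total counts gave 34 higher and 2 lower, and the direction turned only on TPM, where the unit and the test change as well, with 6 higher and 13 lower. In endoderm total counts gave 77 higher and 1 lower, and TPM 68 and 3. RPLP0, listed above, was also nearest between fractions in ectoderm, and its part in the ectoderm result was not tested.

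The sizes of the ectoderm shift varied between classes. Amino acid carriers had the highest median of the classes with 10 or more genes, 1.47 with 23 of 29 called higher, and sugar carriers had 0.88 with 12 of 14. In the taurine carrier SLC6A6 the log2 difference between cytoplasm and nucleus was 2.52 ± 0.21 above that in hPSC (adjusted p = 5.22e-08). It stood at 32.7, 35.4 and 43.7 CPM in hPSC cytoplasm against 313, 339 and 355 CPM in nucleus, and at 83.4, 70.5 and 76.7 against 116, 89.5 and 138 CPM in ectoderm. The fractions did not overlap in either cell type, but lay much closer in ectoderm. For SLC2A3 the shift was 1.39 ± 0.24, for SLC16A1 1.76 ± 0.28 and for SLC39A14 1.79 ± 0.19. SLC35A4 moved the other way (-1.43 ± 0.25). SLC20A1 (0.28 ± 0.18) and SLC6A8 (-0.03 ± 0.20) were not called, and SLC20A1 was called on TPM (0.85) and on shared transcripts (0.48). In endoderm 11 of 15 zinc and manganese carriers were called higher and 1 lower, with a class median of 0.97 that stayed between 0.93 and 1.43 with the other scalings and on TPM. The zinc importer SLC39A10 (2.01 ± 0.38) led them, while the Golgi zinc carrier SLC39A13 had a lower difference than in hPSC (-1.34 ± 0.20). No ion exchanger was called higher in endoderm, and 3 of 15 were lower (19.6% and 18.3% of all genes). With total counts only 1 member of any class was called lower in endoderm, so these 3 calls did not all hold.

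**Figure D4:**
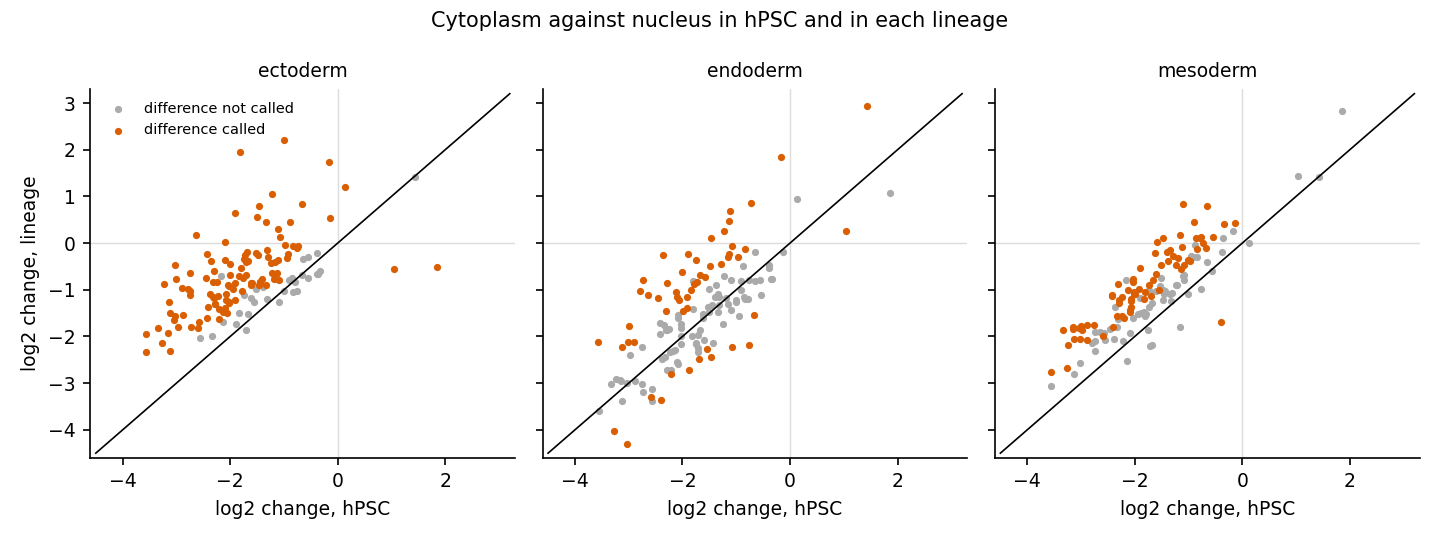
Log2 change of cytoplasm against nucleus in hPSC (horizontal) and in each derived cell type (vertical) for the members tested in both; the black line marks equal change and orange points are members whose difference was called. In ectoderm the difference of 106 of the 141 members was called above that in hPSC and that of 2 below it. Calls come from a joint fit of all cell types and the axes from separate fits, so a call does not fix the side of the line. Members not tested in a cell type have no point.

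The third comparison split the nucleus into chromatin and nucleoplasm, without mesoderm, whose nucleoplasm had 1 library. In hPSC 22 of 139 members were higher and 32 lower in chromatin (17.1% and 13.5% of all genes), in ectoderm 34 and 40 of 140 (21.5% and 21.7%), and in endoderm 21 and 74 of 140 (22.9% and 30.7%). Called either way were 30.6%, 43.2% and 53.6% of all genes. With total counts the splits became 30 and 13, 44 and 23, and 41 and 44. On TPM they became 67 and 1, 60 and 0, and 40 and 40. Total counts alone thus turned the balance of calls in hPSC and ectoderm, while TPM changes the unit and the test as well. Without nucleoplasm replicate 1 the hPSC count was 27 in place of 54, and without chromatin replicate 3 it was 12 higher and 37 lower.

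The bicarbonate exchanger SLC4A3 was higher in chromatin in all 3 cell types, also with total counts and on TPM. It stood at 33.8, 36.1 and 60.8 CPM in hPSC chromatin against 14.1, 14.0 and 12.8 CPM in nucleoplasm, and at 77.2, 88.0 and 91.0 against 18.3, 15.4 and 13.0 CPM in endoderm. The libraries did not overlap, which was a condition for naming SLC4A3. Its log2 change was 1.44 ± 0.21 (adjusted p = 4.58e-04) in hPSC, 1.88 ± 0.18 in endoderm and 1.02 ± 0.20 in ectoderm. The sodium-proton exchanger SLC9A5 changed by 1.27 ± 0.20 in hPSC, 1.62 ± 0.25 in endoderm and 1.02 ± 0.18 in ectoderm. Ion exchangers as a class were higher in 8 of 15 cases in hPSC, 5 of 15 in ectoderm and 7 of 14 in endoderm, and lower in 1, 2 and 5. Zinc and manganese carriers were lower in 10 of 15, 9 of 15 and 12 of 15 cases, with medians of -0.58, -0.52 and -1.35, and on TPM these medians were 0.03, 0.08 and -0.66. In endoderm, SLC39A10 stood at 130, 138 and 118 CPM in chromatin against 487, 390 and 470 CPM in nucleoplasm (-2.38 ± 0.25, adjusted p = 2.02e-06). SLC2A3 stood at 2830, 2882 and 3155 CPM against 10944, 10490 and 10873 CPM (-2.44 ± 0.23), and SLC16A1 at 550, 536 and 478 against 1820, 1613 and 1754 CPM (-2.31 ± 0.20). All nucleoplasm libraries of these 3 genes were above all chromatin libraries in endoderm.

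The last comparisons set each derived cell type against hPSC within a fraction. They share the hPSC libraries, so their counts are given side by side only. In cytoplasm, 85 of 141 members were higher and 17 lower in endoderm (29.6% and 28.6% of all genes), 73 and 34 in mesoderm (34.6% and 33.4%), and 55 and 49 in ectoderm (38.0% and 37.9%). The median log2 change was 0.49, 0.39 and 0.13, with the median of all genes between 0.00 and 0.01. In chromatin, 57 were higher and 41 lower in endoderm (28.9% and 33.0%), 44 and 39 in mesoderm (27.1% and 27.4%), and 26 and 65 in ectoderm (30.5% and 32.4%). Called either way were 58.1%, 68.0% and 75.9% of all genes in endoderm, mesoderm and ectoderm cytoplasm, and 61.8%, 54.5% and 62.9% in chromatin. On transcripts present in all 4 tables, 66 members were called in endoderm cytoplasm and 65 in mesoderm cytoplasm, against 102 and 107, with 117 members that have such a transcript.

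The glucose carriers did not move together. SLC2A3 stood at 1924, 1636 and 1275 CPM in endoderm cytoplasm, 1702, 1458 and 1514 CPM in mesoderm and 607, 431 and 509 CPM in ectoderm, against 147, 175 and 205 CPM in hPSC. Every library of the derived cell types was above every hPSC library, by 3.03 ± 0.16 (adjusted p = 8.49e-10), 3.10 ± 0.16 (5.75e-10) and 1.47 ± 0.15 (5.04e-07) on the log2 scale. In chromatin SLC2A3 was higher in endoderm (2.00 ± 0.26) and mesoderm (1.99 ± 0.26) and stood at 0.03 ± 0.25 in ectoderm. SLC2A1 was higher in ectoderm cytoplasm, at 287, 236 and 250 against 138, 104 and 141 CPM (0.93 ± 0.12). Its chromatin level was lower in endoderm (-1.29 ± 0.16), mesoderm (-1.02 ± 0.16) and ectoderm (-0.81 ± 0.16), where TPM gave -0.50 without a call. SLC2A13, a carrier of myo-inositol, was higher in mesoderm, at 26.1, 20.7 and 17.5 CPM in cytoplasm against 1.44, 1.07 and 1.79 CPM (3.84 ± 0.24), and by 2.70 ± 0.30 in chromatin. From the partner list, TXNIP, which lowers glucose uptake, changed in cytoplasm by 3.18 ± 0.24 (ectoderm), 1.46 ± 0.23 (mesoderm) and -2.04 ± 0.24 (endoderm). SLC16A3 (MCT4, a lactate exporter) stood at 26.3, 19.8 and 22.8 CPM in endoderm cytoplasm against 3.48, 3.01 and 3.58 CPM in hPSC (2.61 ± 0.17), and was also higher in mesoderm (1.86 ± 0.18) and ectoderm (1.34 ± 0.18). In that list as a whole, 6 genes were higher and 1 lower of 16 in endoderm cytoplasm, 5 and 8 in mesoderm and 8 and 5 in ectoderm.

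Amino acid carriers divided the lineages. In cytoplasm, 17 of 29 were higher and 3 lower in endoderm, 13 and 8 in mesoderm, and 6 and 16 in ectoderm. The shares of all genes were 29.6% and 28.6%, 34.6% and 33.4%, and 38.0% and 37.9% in that order. In ectoderm chromatin 2 of 29 were higher and 18 lower, against 30.5% and 32.4% of all genes. SLC7A5 stood at 25.5, 22.5 and 25.9 CPM in ectoderm cytoplasm, 168, 217 and 285 CPM in hPSC, 532, 444 and 475 CPM in mesoderm and 1230, 978 and 1016 CPM in endoderm. No library of any of these 4 groups overlapped another group, and against hPSC the log2 change was -3.26 ± 0.16 (adjusted p = 2.04e-10) in ectoderm, 1.06 ± 0.15 in mesoderm and 2.10 ± 0.15 in endoderm. In chromatin SLC7A5 changed by -4.48 ± 0.20 in ectoderm. SLC3A2 moved less, by -0.85 ± 0.10 in ectoderm and 0.55 ± 0.10 in endoderm cytoplasm, and stood at -0.19 ± 0.10 in mesoderm, where it was called without hPSC cytoplasm replicate 2 (-0.31). The windows printed above cover a single start of each gene, that of SLC3A2 an internal one. No binding was measured, and a link between the windows and these changes was not tested.

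SLC7A3 was also lowest in ectoderm and highest in endoderm, at 12.8, 10.7 and 10.6 CPM in ectoderm cytoplasm, 68.8, 61.1 and 67.9 CPM in hPSC and 182, 155 and 164 CPM in endoderm, with log2 changes of -2.62 ± 0.12 in ectoderm and 1.17 ± 0.11 in endoderm. In mesoderm it stood at 37.6, 28.3 and 32.7 CPM (-1.06 ± 0.11). The glutamine carrier SLC1A5 was lower in ectoderm in cytoplasm (-1.40 ± 0.10) and chromatin (-2.81 ± 0.17). In mesoderm the glutamine and alanine carriers SLC38A2 and SLC38A1 were higher: SLC38A2 stood at 467, 432 and 383 against 77.6, 79.8 and 90.8 CPM (2.31 ± 0.16), and SLC38A1 at 586, 534 and 463 against 146, 166 and 189 CPM (1.60 ± 0.13). SLC1A3, a glutamate carrier, was 27.9, 25.7 and 23.8 CPM in mesoderm cytoplasm against 4.80, 3.88 and 4.71 CPM (2.48 ± 0.18), and was also higher in mesoderm chromatin (2.69 ± 0.16). SLC7A7, the light chain of a cationic amino acid exchanger, had the largest rise in endoderm cytoplasm, at 148, 108 and 116 CPM against 4.68, 4.21 and 3.38 CPM (4.77 ± 0.21, adjusted p = 1.52e-10). SLC7A7 had 9 transcripts in the endoderm assembly and 2 in that of hPSC, with no Ensembl transcript in all 4 tables, so its size could not be checked on shared transcripts. The same limit holds for SLC2A13, SLC16A3, SLC6A8, SLC29A4, SLC17A9 and SLC39A13, which also had no Ensembl transcript in all 4 tables.

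The creatine carrier SLC6A8 was lower in mesoderm, between 26.5 and 31.0 CPM in its 3 cytoplasm libraries against 168, 189 and 215 CPM in hPSC (-2.78 ± 0.12, adjusted p = 1.05e-10), and higher in ectoderm, at 361, 353 and 370 CPM (0.84 ± 0.11). In chromatin SLC6A8 changed by -2.70 ± 0.22 in mesoderm and 0.81 ± 0.21 in ectoderm. Pseudogene copies of SLC6A8 are known, and how reads were shared with them is not given in the sources used here.

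Zinc and manganese carriers were higher in cytoplasm in 11 of 15 cases in mesoderm, 10 of 15 in endoderm and 9 of 15 in ectoderm, with 2, 1 and 2 lower. Of all genes 34.6%, 29.6% and 38.0% were higher in that order, and 33.4%, 28.6% and 37.9% lower. Of the 141 members 73, 85 and 55 were higher. SLC39A8, an importer of zinc and manganese, stood at 73.5, 50.3 and 45.1 CPM in endoderm against 7.08, 8.69 and 10.0 CPM in hPSC (2.52 ± 0.20) and was higher in endoderm chromatin (1.63 ± 0.27). SLC30A7, a zinc carrier of the Golgi, stood at 48.0, 25.2 and 33.5 CPM in ectoderm against 3.48, 5.35 and 6.10 CPM (2.69 ± 0.22). SLC39A10 was higher in ectoderm (1.76 ± 0.19) and mesoderm (1.33 ± 0.19) cytoplasm. None of the endoderm libraries of SLC39A8 reached down to the hPSC values. The same held for SLC30A7 in ectoderm, where it was a condition for naming the gene. In chromatin the class had 4 higher and 5 lower of 15 in endoderm, 3 and 4 in ectoderm, and 5 and 3 in mesoderm. The shares of all genes were 28.9% and 33.0%, 30.5% and 32.4%, and 27.1% and 27.4% in that order.

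Among the remaining classes, nucleotide sugar carriers were higher in 11 of 19 cases in ectoderm, 11 in mesoderm and 13 in endoderm cytoplasm, with 2, 2 and 1 lower. Of all genes 38.0%, 34.6% and 29.6% were higher in that order, and 37.9%, 33.4% and 28.6% lower. SLC35F5, a member of that family, stood at 99.5, 64.2 and 71.9 CPM in ectoderm against 21.5, 19.2 and 15.5 CPM (1.98 ± 0.16), and at 2.21 ± 0.19 in chromatin. The monoamine carrier SLC29A4 was higher in ectoderm in cytoplasm (2.28 ± 0.14) and chromatin (2.40 ± 0.21). The phosphate carrier SLC20A1 was lower in ectoderm (-1.46 ± 0.13) and mesoderm (-0.88 ± 0.13) cytoplasm. SLC17A9, the vesicular nucleotide carrier, was lower in ectoderm (-2.54 ± 0.21) and mesoderm (-2.42 ± 0.21) cytoplasm, at 2.80, 2.72 and 3.68 CPM and 3.58, 2.92 and 3.41 CPM against 21.0, 13.4 and 17.0 CPM. SLC17A9 was thus lower by a similar amount in both. No library overlapped hPSC, which was a condition for naming it.

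Cytoplasm and chromatin are separate libraries of the same cell types, and all 141 members were tested in both. In ectoderm 24 members were higher in both and 47 lower in both, with 7 opposite, against 25.1%, 26.3% and 2.99% of all genes. In endoderm the counts were 49, 13 and 12, against 17.7%, 19.0% and 3.81%, and in mesoderm 40, 28 and 5, against 21.0%, 19.9% and 2.03%. The copper importer SLC31A1 was one of the opposite cases: it was higher in ectoderm cytoplasm, at 80.1, 62.5 and 69.9 against 28.9, 37.2 and 40.3 CPM (0.90 ± 0.13), and lower in ectoderm chromatin, at 58.3, 47.2 and 55.3 against 108, 90.8 and 102 CPM (-0.90 ± 0.29), where TPM gave -0.59 and shared transcripts -0.51, both without a call. In endoderm its changes were 0.61 ± 0.13 in cytoplasm and -1.86 ± 0.30 in chromatin. Of 220 results of named or plotted members, 26 lost their call under some setting and 12 gained one. In the plot of 21 members, calls lost included SLC31A1 in mesoderm cytoplasm (0.29 with total counts). It was also lost with RLE scaling, DESeq2, the replicate block, only the groups compared and several single libraries left out (0.17 to 0.35). SLC39A14 in endoderm chromatin lost its call with RLE scaling (-0.47), on shared transcripts (-0.325) and with several single libraries left out (-0.58 to -0.51). SLC16A1 in ectoderm cytoplasm lost its call on TPM (-0.12). On shared transcripts, SLC16A1 in endoderm cytoplasm (0.38) and SLC38A1 in endoderm chromatin (-0.35) lost theirs. SLC39A10 in endoderm cytoplasm lost it without endoderm cytoplasm replicate 1 (0.51). These calls of SLC16A1, SLC38A1 and SLC39A10 were lost under further settings as well. SLC2A1 in cytoplasm lost its call in endoderm and mesoderm on TPM (-0.07 and -0.05) and with only the groups compared (-0.36 and -0.27). In endoderm it also lost it with total counts (-0.27) and without endoderm cytoplasm replicate 1 or hPSC cytoplasm replicate 3 (-0.29 each). In mesoderm it also lost it on transcripts shared by all 4 tables (-0.20) and without any 1 of 4 libraries (-0.31 to -0.22).

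**Figure D5:**
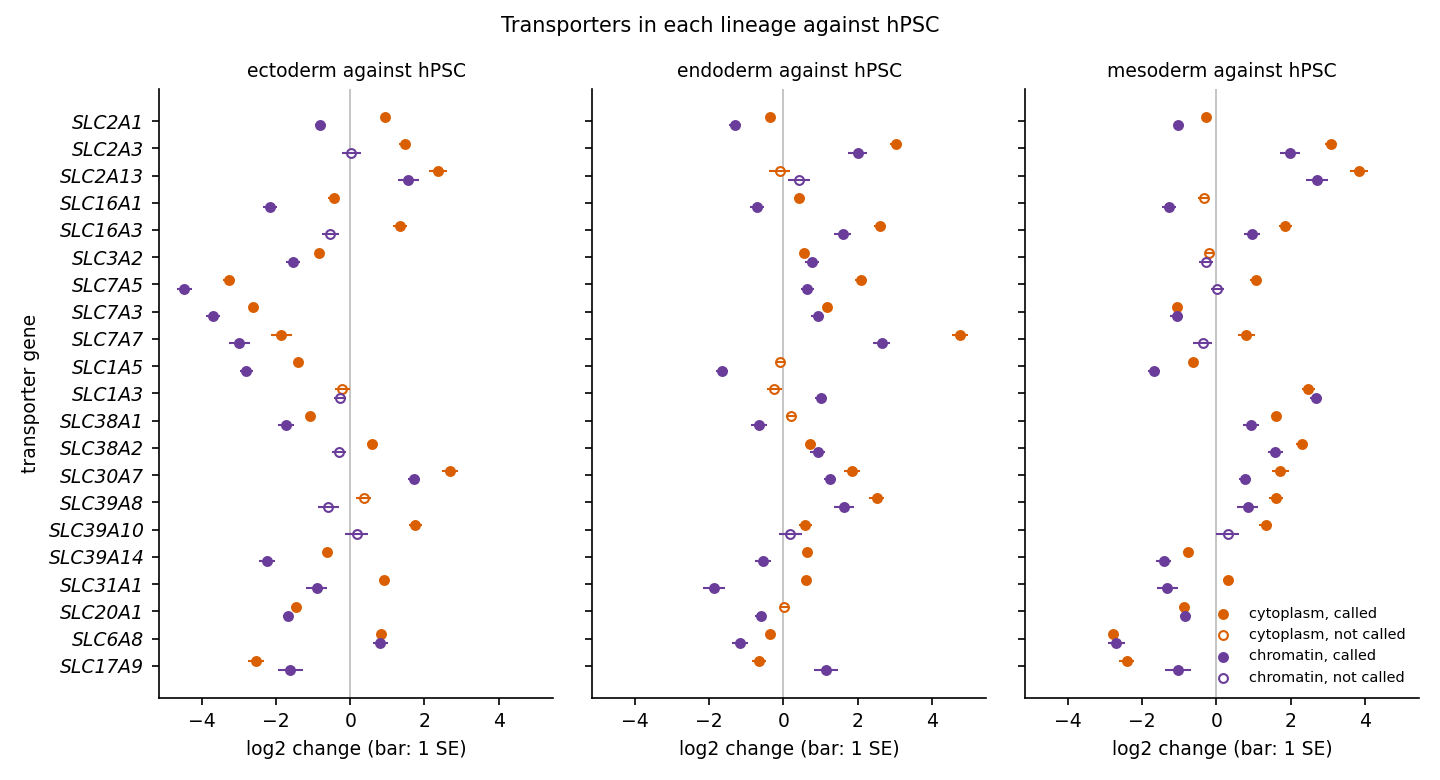
Log2 change against hPSC (horizontal axis, bars are 1 SE) of 21 named members in cytoplasm (orange) and chromatin (purple) of each derived cell type; filled points were called and open points were not. SLC7A5 lies at -3.26 in ectoderm cytoplasm and at 2.10 in endoderm cytoplasm, and SLC2A3 lies at 3.03 and 3.10 in endoderm and mesoderm cytoplasm.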

How the data were processed

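Estimated counts and TPM per transcript were taken as deposited. The counts are whole numbers and were read as rounded RSEM expected counts, since the submitters' processing notes name RSEM, STAR and the hg38 build. How the authors assembled transcripts for each cell type and whether counting used strand is not given in the sources used here. The deposited TPM values are relative to all transcripts of a library and corrected for transcript length. Per the labels' protocols, cytoplasm was released with NP-40 before nuclei were split.

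Transcript counts were summed per Ensembl gene within each cell type's table. Entries without a gene, 0.2775% to 9.603% of a library's counts, were part of the library totals behind CPM but stayed out of the tests. A further 1 ectoderm column that matched no sample was not used. Columns written "Nei" were read as nucleus. Genes were kept with the edgeR filter at a minimum count of 10. Each comparison used edgeR's quasi-likelihood test with TMM scaling in a fit over all groups of the table or tables, with Benjamini-Hochberg adjustment over all genes and a threshold of 0.05. Comparisons between cell types used genes found in all 4 tables. Not tested were SLC31A2 in hPSC and mesoderm, SLC7A4 in hPSC and ectoderm, and SLC9A7 in endoderm. Alternatives were RLE scaling, total counts, DESeq2, limma on log2(TPM + 1), no filter, only the groups compared, a replicate block, a combined assembly, transcripts shared by all 4 tables, and leaving out each library. Members named were up to 6 each way per comparison by size among called members of at least 10 CPM whose groups did not overlap (no such condition for changes of a difference), together with members named for their role. For those named by size, groups without overlap were thus a condition and not a result. The members and lists were chosen with earlier results of these data known. Of 45 replicate pairs none was identical. Versions were R 4.3.3, edgeR 4.0.16, limma 3.58.1 and DESeq2 1.42.0. The fits were tested on simulated data with 200 changed genes, evenly up and down. Far more genes were called here, so that test does not cover the dependence on scaling.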

Additional observations from a re-analysis of the deposited data

Results flagged for a closer look

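The members below are given again because a test of the difference itself found that cytoplasm against nucleus differed between a derived cell type and hPSC (edgeR quasi-likelihood interaction term, log2 scale, adjusted over all genes). In ectoderm the difference exceeded that in hPSC by 2.52 for SLC6A6 (adjusted p = 5.22e-08), 1.79 for SLC39A14 (4.85e-07), 1.76 for SLC16A1 (3.76e-05) and 1.39 for SLC2A3 (8.48e-05). For SLC35A4 it was lower than in hPSC, at -1.43 (adjusted p = 9.17e-05). In endoderm it was 2.01 for SLC39A10 (adjusted p = 5.01e-04) and -1.34 for SLC39A13 (5.81e-05). These tests share the hPSC libraries.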

How the results depend on the processing

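Of 237 alternative counts of called members, 9 moved by more than 1.5 times. On TPM, cytoplasm against nucleus in ectoderm gave 65 calls against 107. On transcripts shared by all tables, calls were 66 against 102 in endoderm cytoplasm, 65 against 107 in mesoderm cytoplasm, 61 against 98 in endoderm chromatin, 35 against 53 for the endoderm and 39 against 74 for the mesoderm change of the cytoplasm-nucleus difference, with fewer members tested. The mesoderm change gave 36 calls with total counts and 19 on TPM; the cause was not tested. Splits also moved on TPM to 88 higher and 4 lower in endoderm cytoplasm and 77 and 19 in mesoderm cytoplasm. Leaving out single libraries gave 27 to 54 calls (54 with all) for chromatin against nucleoplasm in hPSC, with 27 without nucleoplasm replicate 1, 40 without nucleoplasm replicate 2 and 36 without nucleoplasm replicate 3.

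Replicate numbers are shared between groups, but in no comparison did every same-numbered pair of libraries correlate above 0.1. The correlations were taken over all genes that passed the filter, and the numbers were not taken as pairs. With the replicate block, calls were 133, 107, 121 and 103 for cytoplasm against nucleus in hPSC, ectoderm, endoderm and mesoderm. They were 51, 69 and 93 for chromatin against nucleoplasm, 102, 96 and 105 for ectoderm, endoderm and mesoderm cytoplasm, 90, 95 and 80 for chromatin, and 107, 51 and 69 for the changes of the difference, none moved by over 1.5 times.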
